A study of Rattus norvegicus with 40 samples.

Results

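The 200 transcripts described here were chosen by their level in the soleus muscle, as those that were abundant there and nearly absent from liver, peritoneal fat and hippocampus. Mean TPM (a transcript's share of all transcripts, corrected for length and scaled to 1000000) was taken per tissue over 10 rats of both genotypes. A transcript was kept where its soleus mean was at least 10 TPM and at least 20 times its mean in each of the other tissues, with 0.1 added to every mean. These limits were met by 235 of 31715 transcripts, and the 200 with the highest soleus mean were taken. The tissue difference is therefore the choice itself and was not tested.

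The rats were SHR-Tti2+/-, spontaneously hypertensive rats with 1 allele of Tti2 disrupted by a zinc finger nuclease, and wild-type SHR littermates from the same intercross. They were males, and all Tti2+/- rats descended from a single edited line, so the comparison concerns that line. RNA of soleus, liver, fat and hippocampus was sequenced, with 5 rats per genotype and tissue and 40 libraries in all. The labels call the depot peritoneal fat. The soleus libraries held between 23384741 and 27426073 estimated counts. Gene names could not be paired with the transcripts, so the members are described by their rank in soleus mean TPM and their length in bases. For the same reason neither the tissue labels nor the genotype labels, by Tti2 itself, could be checked here. The paper reports lower Tti2 mRNA in the Tti2+/- rats in each tissue, as group estimates and not per rat. The missing check bears on the library labelled Tti2+/- rat 3, whose soleus levels lay near those of the wild-type rats at several members. Its genotype was taken as labelled, and the calls are also given without it.

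As background, Tti2 is a subunit of the TTT complex, which together with Telo2 and Tti1 helps newly made kinases such as mTOR and ATM to fold and remain stable. The soleus is a postural muscle of the calf in which slow, oxidative fibres prevail. Striated muscle devotes much of its messenger RNA to the contractile apparatus, to calcium handling and to energy supply, and many muscle genes give rise to several related transcripts that differ with fibre type. In bulk tissue, fewer fibres of a type and less RNA per fibre cannot be told apart.

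The members were few but made up a large part of the muscle transcriptome. In wild-type soleus they held between 29.6% and 32.8% of all TPM, with a mean of 31.3% ± 1.29 (SD, n = 5). In SHR-Tti2+/- soleus they held 25.1% in rat 6, 28.5% in rat 4, 30.0% in rat 3, 31.4% in rat 2 and 31.4% in rat 5, with a mean of 29.3% ± 2.62 (SD, n = 5). The genotypes overlapped, and Tti2+/- rats 4 and 6 lay below every wild-type rat. The share was carried by a small number of transcripts. The 10 most abundant members held 58.7% of the TPM of all members and the first 20 held 79.3%, whereas the last 100 held 2.30%.

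**Figure D1:**
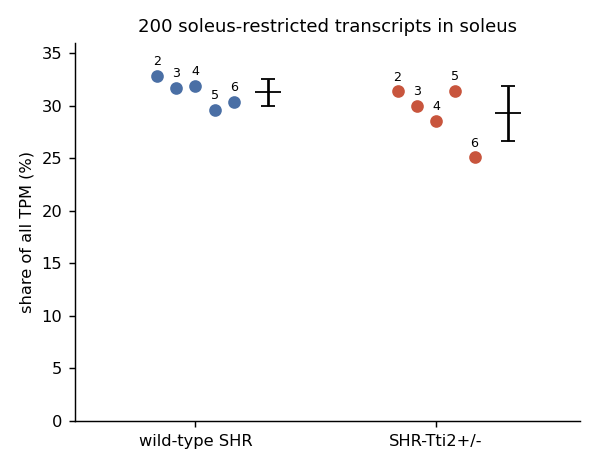
Share of all TPM held by the 200 members in each soleus library, with rats numbered as in the labels; points are rats, and the bar and whiskers give the mean and SD of 5 rats. The wild-type rats lay between 29.6% and 32.8%, and Tti2+/- rat 6 was lowest at 25.1%.

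Soleus means ran from 38968 TPM for the first member, a transcript of 1436 bases, to 27.2 TPM for the last, with a median of 154 TPM. Of the members, 33 exceeded 1000 TPM, 88 lay between 100 and 1000 TPM and 79 lay below 100 TPM. The first transcript left out for its rank had a soleus mean of 26.4 TPM. At the limit on tissue difference, the member nearest to it was 21.3 times its next tissue. Of the transcripts outside it with a soleus mean at or above that of the last member, the nearest was 16.4 times. Most members were far from this limit, with a median ratio to the next tissue of 271, more than 100 in 153 members and more than 1000 in 40. The next tissue was fat for 107 members, hippocampus for 80 and liver for 13. Only 12 members reached a mean of 10 TPM in any other tissue. The highest of these was 93.0 TPM in hippocampus for the member ranked 15, of 537 bases. Lengths ran from 309 to 25658 bases with a median of 1744, against 1672 over all transcripts, and 33 members were longer than 5000 bases.

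The first 5 members had similar levels in both genotypes. The member ranked 1 had 38952 ± 2847 TPM in wild-type and 38984 ± 4167 TPM in Tti2+/- soleus (SD, n = 5), a log2 fold change of 0.02 ± 0.10 (SE) by edgeR. The member ranked 2, of 1438 bases, had 25610 ± 1012 and 22661 ± 2694 TPM. The member ranked 3, of 1235 bases, had 19337 ± 4318 and 18872 ± 3353 TPM. By edgeR the smallest unadjusted p of the first 5 members was 0.157.

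Whether the loss of 1 Tti2 allele changed these transcripts in soleus was tested with edgeR's quasi-likelihood test over all transcripts that passed a count filter. Of 18120 transcripts tested, 1 was called at a Benjamini-Hochberg adjusted p under 0.1 and a 1.5-fold change, or 0.00552%, and it was not a member. The filter kept 199 of the 200 members, and 0 were called. DESeq2 called 40 of the same 18120 transcripts, among them 4 of the 199 members. At the same limits the paper, with a Wald test in sleuth, reports more differentially expressed soleus transcripts than either test called here. The number of calls thus differed with the test. By edgeR the smallest adjusted p of a member was 0.465. The log2 fold changes of the tested members were centred on 0, with a median of 0.006 and an interquartile range of -0.10 to 0.17, against a median of -0.004 over all transcripts. Of the members, 100 had a higher and 99 a lower estimate in Tti2+/- rats. A difference of 1.5-fold or more in either direction was found for 18 of the 199 members and for 1764 of the 18120 transcripts. Most of the 18120 were far less abundant than the members and varied more between rats, as given below. These counts therefore do not tell whether the members were set apart.

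At an unadjusted p under 0.05 there were 27 members, or 13.6% of those tested, against 6.84% of all transcripts; 16 had a higher and 11 a lower estimate in Tti2+/- rats. None of them passed the adjustment, with adjusted p between 0.465 and 0.724 by edgeR. The absolute log2 fold change of the 27 had a median of 0.51, and 12 of them reached 1.5-fold. All 5 Tti2+/- rats lay above all 5 wild-type rats for 2 members, where 0.8% of all transcripts did so, and below them for 0 members, where 0.502% did. Tti2+/- rat 3 set the limit on several of these differences. For 21 of the 27 members its level lay nearer to the wild-type mean than to the mean of the other Tti2+/- rats, while this was so for 6 members in rat 2, 2 in rat 4, 2 in rat 5 and 0 in rat 6. The 27 were picked with rat 3 among the samples, so these counts describe the libraries and were not tested. Without the library labelled Tti2+/- rat 3, an alternative added after these values were seen, the filter kept 17861 transcripts and 198 members. The members ranked 41 and 194, described below, did not pass and were not tested there. By edgeR 0 members were again called, with 3 calls over all transcripts and a smallest adjusted p of 0.174 among members. DESeq2 then called 166 of the 17861 transcripts, among them 12 of the 198 members. By edgeR 20.2% of these members and 9.64% of all transcripts had an unadjusted p under 0.05. Rat 3 was left out after it was seen to lie near the wild-type rats. A rise in calls follows from that choice and adds no support. DESeq2 was run with no other rat left out, so its rise has no comparison. By edgeR, leaving out wild-type rat 2 gave 5 calls over all transcripts.

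**Figure D2:**
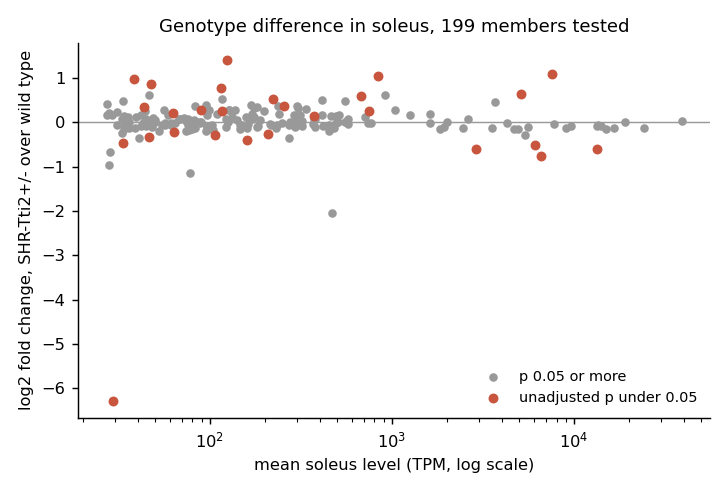
Log2 fold change between SHR-Tti2+/- and wild-type soleus (vertical axis, from edgeR) against the mean soleus level in TPM (log scale) for the 199 tested members; points are transcripts and red marks an unadjusted p under 0.05. Estimates scattered around 0 at all levels, with a median of 0.006, and 27 points are red.

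Of the transcripts with a higher estimate in Tti2+/- rats, ENSRNOT00000014627.3 had the smallest p. This member, ranked 149 and 714 bases long, had 56.8, 59.3, 56.6, 61.5 and 61.9 TPM in wild-type rats 2 to 6 and 70.3, 62.7, 65.3, 65.6 and 68.2 TPM in Tti2+/- rats 2 to 6. The groups did not overlap, although the gap between them was 61.9 to 62.7 TPM. The log2 fold change was 0.22 ± 0.05 (SE) with an adjusted p of 0.465 by edgeR. The exact two-sided permutation test of its normalised CPM (estimated counts scaled to 1000000 per library, TMM) gave p = 0.0079, the smallest that 5 rats against 5 allow. This member was picked for its small p in the same libraries, so the permutation p is not adjusted for that choice and adds no support. It was also the member that varied least between rats, with a coefficient of variation (CV, the SD over the mean within a genotype, averaged over both) of 0.0395. The next, ENSRNOT00000063918.4, ranked 35 and 1068 bases long, had 516, 779, 364, 659 and 487 TPM in wild-type rats 2 to 6. In Tti2+/- rats 2 to 6 it had 1192, 558, 1234, 1311 and 1283 TPM. Rat 3 lay within the wild-type range and the other Tti2+/- rats above it. The log2 fold change was 1.05 ± 0.26 (SE) with an adjusted p of 0.597 by edgeR, against 0.0158 by DESeq2. For this member, picked in the same way, the exact permutation test gave p = 0.0238.

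Of the transcripts with a lower estimate, ENSRNOT00000080339.1, ranked 14 and 1062 bases long, had 7641, 8618, 9336, 5782 and 10397 TPM in wild-type rats 2 to 6 and 6236, 6026, 2954, 5289 and 3174 TPM in Tti2+/- rats 2 to 6. Wild-type rat 5 overlapped with the Tti2+/- rats. The log2 fold change was -0.76 ± 0.23 (SE) with an adjusted p of 0.660 by edgeR, and DESeq2 gave 0.0983. The exact permutation test on its normalised CPM gave p = 0.0238, again for a member picked by its p. ENSRNOT00000085582.1, ranked 194 and 5826 bases long, was high in some wild-type rats and low or absent in all other rats. It had 65.1, 119 and 105 TPM in wild-type rats 2, 4 and 5, whereas wild-type rats 3 and 6 and all 5 Tti2+/- rats had between 0 and 1.85 TPM. In estimated counts Tti2+/- rats 3 and 4 had 178 and 209, and the other low rats had at most 0.499. The log2 fold change was -6.29 ± 1.96 (SE) with an adjusted p of 0.660 by edgeR. The exact permutation test on its normalised CPM gave p = 0.167.

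The other 2 members called by DESeq2 were ranked 18 and 178. The member ranked 18, of 946 bases, had 3614, 5174, 3508, 4042 and 3844 TPM in wild-type rats 2 to 6 and 5671, 4351, 7253, 5817 and 7982 TPM in Tti2+/- rats 2 to 6. Here too Tti2+/- rat 3 lay within the wild-type range. The log2 fold change was 0.65 ± 0.17 (SE), with an adjusted p of 0.615 by edgeR and 0.0321 by DESeq2. The member ranked 178, of 6035 bases, had a log2 fold change of 0.99 ± 0.26 (SE), with 0.620 by edgeR and 0.0294 by DESeq2 as adjusted p. The second member whose genotypes did not overlap was ranked 83, of 5378 bases, with 647 to 953 normalised CPM in wild-type and 998 to 1591 in Tti2+/- soleus. On the TPM scale, 145 to 210 against 207 to 340, the groups overlapped by 1 rat of each genotype. Its log2 fold change was 0.53 ± 0.15 (SE), with an adjusted p of 0.638 by edgeR.

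The largest contrast between individual rats concerned a pair of members of almost equal length, which are singled out because of these values. The member ranked 41, of 1080 bases, was the one that the count filter removed, since only 4 soleus libraries held 5 counts or more. It had 863, 1930, 1441 and 1766 TPM in Tti2+/- rats 2, 4, 5 and 6, but at most 0.0982 TPM in Tti2+/- rat 3 and in every wild-type rat. In estimated counts this was 12972 to 32740 in the 4 rats and at most 1.71 in the other 6. With the filter dropped, edgeR gave it an adjusted p of 0.158 over 25347 transcripts and DESeq2 gave 1.3e-11. This member met the soleus limit only through the 4 Tti2+/- rats, as its wild-type mean was 0.02 TPM. It was also singled out for these values, so neither adjusted p adds support. The member ranked 52, of 1074 bases, had the opposite pattern. It had 603, 925, 419, 1024 and 816 TPM in wild-type rats 2 to 6 and 812 TPM in Tti2+/- rat 3, against 79.5 TPM in Tti2+/- rat 2 and at most 0.148 TPM in Tti2+/- rats 4, 5 and 6. Every soleus thus held at least 1 of the pair, and their sum ran from 419 to 1930 TPM. The sources used here do not tell whether they come from the same gene. Transcripts of one gene share reads, and kallisto divides such reads by estimation, so neither value is independent of the other if they do. The part of shared reads in the contrast was not tested.

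A less extreme contrast of the same kind was seen between the members ranked 8 and 13, again of almost equal length. The member ranked 8, of 6013 bases, had 15040 to 17868 TPM in wild-type rats, 15918 TPM in Tti2+/- rat 3 and 5896 to 12034 TPM in the other Tti2+/- rats. The member ranked 13, of 6034 bases, had 2885 to 7926 TPM in wild-type rats, 4959 TPM in Tti2+/- rat 3 and 9977 to 12573 TPM in the other Tti2+/- rats. As a share of their sum, the member ranked 8 held 65.5% to 85.5% in wild-type rats, 76.2% in Tti2+/- rat 3 and 37.1% to 51.5% in the other 4. The sum itself was steadier, from 15873 to 23378 TPM over the 10 rats. By edgeR the log2 fold changes were -0.60 ± 0.22 and 1.09 ± 0.34 (SE), with adjusted p of 0.676 and 0.660.

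**Figure D3:**
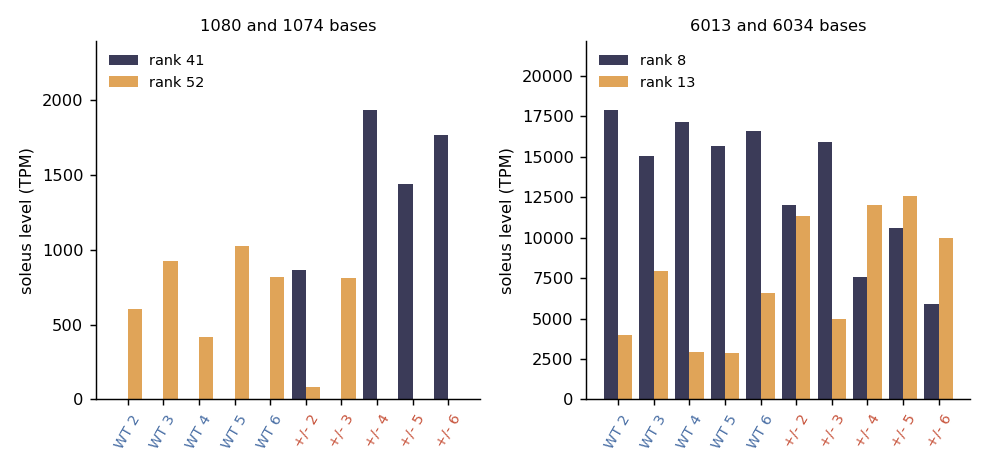
Soleus level in TPM (bars) of the members ranked 41 and 52 (left) and 8 and 13 (right) in each rat, with WT for wild type in blue and +/- for SHR-Tti2+/- in red. The library labelled Tti2+/- rat 3 had the wild-type pattern in both panels, with 0.0643 TPM of the member ranked 41 and 812 TPM of the member ranked 52.

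Of the other 7 members between 5700 and 6100 bases, 3 followed one side or the other of this contrast. The member ranked 24, of 5814 bases, had 2892 to 4601 TPM in wild-type rats, 3231 TPM in Tti2+/- rat 3 and 1467 to 2364 TPM in the other Tti2+/- rats, like the member ranked 8. The member ranked 110, of 5820 bases, had 54.9, 130, 31.8, 32.7 and 95.0 TPM in wild-type rats 2 to 6 and 195, 67.8, 231, 208 and 199 TPM in Tti2+/- rats 2 to 6. The member ranked 178 had 23.1, 36.6, 20.4, 20.04 and 31.3 TPM in wild-type rats 2 to 6 and 47.8, 26.0, 60.7, 56.0 and 62.3 TPM in Tti2+/- rats 2 to 6. In both of these, as in the member ranked 13, wild-type rats 3 and 6 were the highest of their genotype and Tti2+/- rat 3 was the lowest of its own. By edgeR the adjusted p was 0.660 for the members ranked 24 and 110, with log2 fold changes of -0.60 ± 0.20 and 1.41 ± 0.45 (SE). The members ranked 34, 58, 173 and 194 did not. The member ranked 34, of 5748 bases, had 340 to 936 TPM in wild-type and 497 to 2071 TPM in Tti2+/- rats, and was highest in Tti2+/- rat 6. The member ranked 58, of 5923 bases, was highest in Tti2+/- rat 6 with 1241 TPM and in wild-type rat 5 with 969 TPM. The member ranked 173, of 6017 bases, had 32.2 to 53.6 TPM in wild-type and 30.9 to 61.5 TPM in Tti2+/- rats. The member ranked 194, described above, was low in Tti2+/- rat 3, with 1.63 TPM, and near 0 in wild-type rats 3 and 6.

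Both contrasts belonged to groups of like length, whose windows were set after the values had been seen. Between 5700 and 6100 bases lay 9 members. Their levels differed between rats by 1.97-fold to 238-fold (highest over lowest, with 0.5 TPM added). By edgeR 6 of them had an unadjusted p under 0.05, where 13.6% of the tested members and 6.84% of all transcripts did. As the windows were set after the values had been seen, such counts only describe the members chosen. The summed level of these 9 is given next. It stayed within 1.29-fold, with 26112 ± 1499 TPM in wild-type and 24657 ± 2312 TPM in Tti2+/- soleus (SD, n = 5). Between 1000 and 1100 bases lay 9 members, of which 3 had an unadjusted p under 0.05. They differed by 1.56-fold to 3861-fold, while their sum stayed within 1.39-fold, with 27043 ± 1860 and 24317 ± 2527 TPM (SD, n = 5). The sums were set mostly by the most abundant of each group, so the low members could have moved them little. A steady sum therefore says nothing about the low members. Between rats, the sum of the members ranked 8 and 13 differed 1.47-fold, and that of the members ranked 41 and 52 differed 4.61-fold.

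The members varied more between rats than other transcripts above the same lower limit of abundance, which were not matched to them in level. Sets chosen by the same rule in the other tissues were not compared. In normalised CPM the median CV was 0.129 over the 199 tested members, against 0.0727 over 2113 other transcripts with a soleus mean at or above that of the last member. A CV over 0.5 was found in 19 members, or 9.55%, and in 0.852% of the others, and a CV over 0.3 in 13.6% and 3.69%. Over all 18120 tested transcripts, most of them far less abundant, the median was 0.168. The spread was alike in both genotypes, with a median CV of 0.125 in wild-type and 0.126 in Tti2+/- rats, and 17 members exceeded 0.5 in both. The 20 most abundant members had a median CV of 0.137, with an interquartile range of 0.108 to 0.211 against 0.0930 to 0.204 over all members, and 0 of them exceeded 0.5. Over the 10 rats the highest level was less than 1.5 times the lowest for 93 members, at least 2 times for 49, at least 4 times for 25 and at least 10 times for 15. The steadiest after the member ranked 149 was the member ranked 128, of 22488 bases, with a CV of 0.0425.

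Of the 15 members that varied 10-fold or more, 10 were grouped because they were highest in Tti2+/- rat 6 and lowest in wild-type rat 3 or 6. They were ranked 45 to 188 and were 480 to 5923 bases long. Their summed level was 6478 TPM in Tti2+/- rat 6 and 5234 TPM in wild-type rat 5, and 2813, 2375, 2293 and 2107 TPM in Tti2+/- rats 3 and 4 and wild-type rats 4 and 2. It was 995 and 569 TPM in Tti2+/- rats 5 and 2, and 332 and 220 TPM in wild-type rats 3 and 6. High and low rats thus occurred in both genotypes, and the sum differed 29.5-fold between the highest and the lowest rat. Of what this choice did not fix, wild-type rat 5 was next highest for each of the 10, and wild-type rats 3 and 6 were both lowest for 9 of them. The largest range was 143-fold (with 0.5 TPM added to both levels), for the member ranked 80, of 911 bases, which had 684 TPM in Tti2+/- rat 6 and 4.29 TPM in wild-type rat 3. The lowest estimated count of any of the 10 in a soleus library was 35.3, so the low levels were still counted. The log2 fold changes between genotypes were 0.29 to 0.52 with unadjusted p between 0.446 and 0.759 by edgeR, as the genotypes overlapped throughout.

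**Figure D4:**
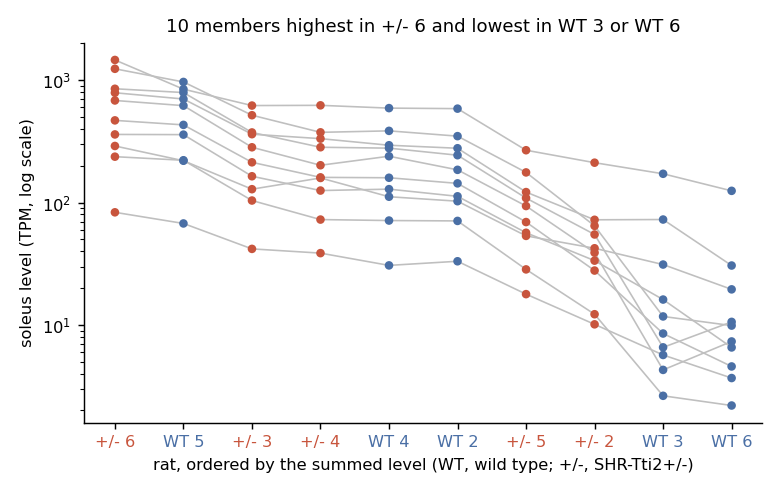
Soleus level in TPM (log scale) of the 10 members grouped by their highest and lowest rats, one line per transcript, with rats ordered by the summed level; blue marks wild-type and red SHR-Tti2+/- rats. The sum ran from 6478 TPM in Tti2+/- rat 6 to 220 TPM in wild-type rat 6, with both genotypes at either end.

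Over all 200 members this order of rats was no more frequent than its opposite. Tti2+/- rat 6 and wild-type rat 5 both lay above wild-type rats 3 and 6 for 38 members, and by 2-fold or more for 14, the 10 among them counted. The opposite order was found for 54 members, and by 2-fold or more for 1. The 2 remaining members of the 10-fold class were of this kind in part. The member ranked 90, of 1589 bases, had 23.1 TPM in wild-type rat 5, and 133 to 272 TPM in the other rats. The member ranked 193, of 1751 bases, had 54.1 and 62.5 TPM in wild-type rats 3 and 6 and 5.40 to 11.8 TPM in wild-type rats 2, 4 and 5. In Tti2+/- rats 2 to 6 it had 48.3, 11.2, 32.0, 49.7 and 22.4 TPM. Among all 200 members, Tti2+/- rat 6 was the highest of the 10 rats for 40 and the lowest for 73, more often than any other rat at either end. Its median deviation from the median of the 10 rats was -0.07 on the log2 scale. This was small, but it was the largest in size of any soleus library, as the others lay between -0.05 and 0.05.

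Outside the soleus the members were at trace levels. They held 0.0039% to 0.0049% of TPM in liver, 0.0191% to 0.0310% in the fat of 9 rats and 0.0321% to 0.0356% in the hippocampus of 9 rats. The exceptions were the fat of Tti2+/- rat 4, with 0.1305%, and the hippocampus of wild-type rat 2, with 0.0617%. In the fat of Tti2+/- rat 4, 134 of the 200 members had their highest fat level, among them 45 of the 50 most abundant. For these 50, its level above the median of the other fat libraries was 0.39% of the soleus level of the same rat at the median, with an interquartile range of 0.31% to 0.44%. The member ranked 1 had 125 TPM there and 0.293 to 9.76 TPM in the other fat libraries. In the hippocampus of wild-type rat 2 the pattern was different. Of the 50 most abundant members 11 were highest there, and the member ranked 15, with 221 TPM against 71.7 to 93.5 TPM in the other hippocampus libraries, made up 51.3% of the excess. The origin of the traces was not tested. The choice of members was not affected, as the same 200 were obtained without the fat of Tti2+/- rat 4.

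**Figure D5:**
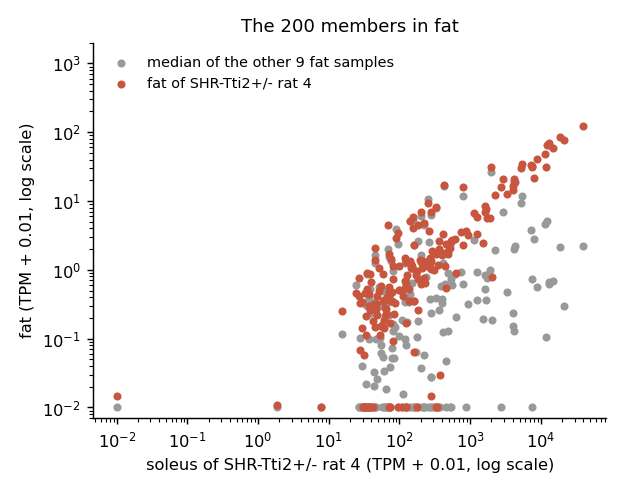
Level of the 200 members in fat (vertical axis, TPM + 0.01, log scale) against their level in the soleus of SHR-Tti2+/- rat 4 (horizontal axis, TPM + 0.01, log scale); red points are the fat of the same rat and grey points the median of the other 9 fat libraries. In the red points the most abundant members followed the soleus level, at a median of 0.39% of it.

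In these tissues the members gave no genotype call by edgeR or by DESeq2. In each of them the paper, at the same limits, reports more differentially expressed transcripts than edgeR called here. In fat 114 members passed the filter and 0 were called, where 0% of 20221 transcripts were called, and 6 members, or 5.26%, had an unadjusted p under 0.05, against 6.96% of all transcripts. The median log2 fold change of the members was 0.47, with 92 higher in Tti2+/- rats, but it was -0.10 without the fat of Tti2+/- rat 4, with 37 of 108 higher, while the median over all transcripts was -0.003 with it and -0.006 without it. In liver 52 members passed and 0 were called, against 0.206% of 18423 transcripts, and 4, or 7.69%, had an unadjusted p under 0.05, against 10.1% of all. In hippocampus 105 passed and 0 were called, against 0.00483% of 20712 transcripts, and 7, or 6.67%, had an unadjusted p under 0.05, against 4.22% of all.

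The share of TPM held by such a set differed between tissues. When the same limits were applied to each of the other tissues in turn, 475 transcripts met them in liver, 134 in fat and 1125 in hippocampus. The 200 most abundant held a median of 46.6% of TPM in liver and 7.12% in hippocampus, and the 134 of fat held 9.47%. The soleus, at a median of 30.8%, lay between liver and the other tissues.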

How the data were processed

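RNA of 40 samples (4 tissues, 5 rats per genotype and tissue) had been sequenced as 75 bp single-end, strand-specific reads. The authors quantified reads against Ensembl transcripts with kallisto, and the deposited values are estimated counts and TPM per transcript. The members and lists were chosen with earlier results of these data known. Members were taken from the TPM. Estimated counts were rounded and tested per tissue with edgeR 4.0.16 (TMM, quasi-likelihood test, genotype only) over transcripts with at least 5 counts in at least 47% of 10 samples, called at a Benjamini-Hochberg adjusted p under 0.1 and 1.5-fold. This replaces the Wald test that the authors ran in sleuth. DESeq2 1.42.0 and limma 3.58.1 (R 4.3.3) were alternatives, and exact permutation tests used all 252 assignments. The scripts were tested on simulated data. None of the transcript IDs was found in the reference tables used here, so IDs were printed only for the 2 members with the smallest p in each direction, and others were given by rank. Members described as singled out, and the length windows, were chosen after their values were seen. Rats with the same number in different genotypes are different animals; the correlations of their deviations were -0.23 to 0.05, so the numbers were not used as pairs. In all 45 pairs of soleus libraries the counts differed beyond sampling noise (chi-square per degree of freedom at least 10.8). This measure was 18.8 to 29.4 between Tti2+/- rat 3 and the wild-type rats, and 42.3 to 93.6 between it and the other Tti2+/- rats. Wild-type rat 3 was in turn nearer to Tti2+/- rat 2 (21.1) than to wild-type rats 2, 4 and 5 (38.3 to 70.7). Rats are separate animals, and depth was 19176393 to 32713126 counts per library.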

Additional observations from a re-analysis of the deposited data

Results flagged for a closer look

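In 18 groups of 5 rats examined for a value far from the others by Dixon's criterion, 3 stood apart, where chance gives about 1 in 20 groups. The members held 0.1305% of TPM in the fat of SHR-Tti2+/- rat 4, against 0.0210% to 0.0246% in the other Tti2+/- fat libraries. They held 0.0617% in the hippocampus of wild-type rat 2, against 0.0321% to 0.0356% in the other hippocampus libraries. In soleus, ENSRNOT00000063918.4, the member ranked 35, had 346 normalised CPM (estimated counts scaled to library size) in Tti2+/- rat 3, far below the other Tti2+/- rats, where the wild-type mean was 340 ± 105 (SD, n = 5).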

How the results depend on the processing

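No member tested was called by edgeR under any count filter, scaling, threshold or left-out rat, nor by limma. The member ranked 41 passed only the filter of at least 1 count in any sample. DESeq2 called 4 of 199 members and 40 of 18120 transcripts. In an alternative added after seeing the data it called 5 members without the count filter (the member ranked 41 in addition, of 49 transcripts called). The member ranked 41 met the soleus limit only through Tti2+/- rats, so its call adds no support. Without Tti2+/- rat 3, also added after seeing the data, DESeq2 called 12 of 198 members and 166 of 17861 transcripts. It was run with no other rat left out. Calls over all soleus transcripts were 1 by edgeR, 5 with at least 10 counts in every sample, 40 by DESeq2 and 1 to 5 with a rat left out (5 without wild-type rat 2, 3 without Tti2+/- rat 3, and 2 without wild-type rat 3 or 4 or Tti2+/- rat 6). With the rat number as a replicate block 0 transcripts and 0 members were called, although the numbers do not pair animals. The median log2 fold change of the members ran from -0.03 to 0.03 over the alternatives. The median CV was 0.117 from deposited TPM and 0.107 (without Tti2+/- rat 6) to 0.133 with a rat left out. The rule was met by 196 to 282 transcripts under other ratios, added constants or genotypes, and 172 to 200 members were shared. Leaving out the fat of Tti2+/- rat 4 or the hippocampus of wild-type rat 2, chosen after seeing the data, gave 0 members called in those tissues. Estimates for transcripts that share reads are not independent.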
